A study of Callithrix jacchus with 54 samples.

Results

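The effect of BMS493 at 48 h of culture was examined in 4 of the 54 RNA-seq libraries of common marmoset cells, 2 from the BLSE + IWR1 + BMS condition and 2 from the BLSE + IWR1 condition, chosen by their sample labels. BLSE stands for BMP4, LIF, SCF and EGF, the cytokines used to induce marmoset primordial germ cell-like cells (cjPGCLCs). IWR1 inhibits WNT signaling, and BMS493 is an inverse agonist of all retinoic acid receptors, which holds the receptors in their repressive state. All 4 libraries came from marmoset ES cells (cjESCs) of the CMES40 line, given as wild type but carrying BLIMP1-tdTomato and NANOS3-eGFP reporters. These cjESCs were kept in PESFA medium, pre-treated for 24 h with the WNT agonist IM12 and activin A, and then cultured in BLSE with IWR1 and a Rock inhibitor, with or without BMS493. The cells at 48 h were taken whole, without sorting on the reporters, so each library holds any mixture of cell types present in the culture. A single reporter line was used. The study describes the replicates as biological duplicates, but no source used here says whether they were grown from separately thawed cultures. The p-values measure only the spread between replicates, pooled over all 54 libraries, and part of that spread may be technical.

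Retinoic acid is made from retinol by dehydrogenases such as ALDH1A2 and ALDH1A3, is broken down by CYP26 enzymes, and acts through nuclear receptors that switch on genes including the anterior HOX genes, CYP26A1 and DHRS3. In the gastrulating embryo it works beside NODAL, WNT, BMP and FGF signals that pattern the primitive streak and the mesoderm. The study added BMS493 because some neural gene expression came with WNT inhibition, and asked whether blocking the retinoic acid signal would prevent it.

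The values are TPM, the share of transcripts that a gene takes in its library, corrected for transcript length, and the depth behind them is not known. The libraries without BMS493 stood apart from each other: 935 of the 11197 genes kept differed by over 2-fold between them, the most of any of the 27 conditions, against 339 between the libraries with BMS493. BLSE + IWR1 replicate 1 had 12085 genes above 0 and 22.5% of its TPM in its 50 highest genes, against 12384 genes and 19.5% in replicate 2. Its summed TPM of 65 ribosomal protein genes was 155325, above the 124907 of replicate 2 and the 129274 and 129368 with BMS493. The part of these differences in the results was not tested. Many calls that were lost with 1 library left out are named as such, but counts for the lists also hold lost calls that are not named.

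Genes called differentially expressed (DEGs) had to differ by over 4-fold on the log2(TPM + 1) scale, with the adjusted p below 0.01 and the mean log2 level of the groups above 1.5. By this rule 27 genes, or 0.241% of those tested, were DEGs at 48 h, of which 14 (0.125%) were higher and 13 (0.116%) were lower with BMS493. The rule without a fold limit, an adjusted p under 0.05, called 769 genes higher (6.87%) and 518 lower (4.63%). These calls take their estimate of spread from all 54 libraries in limma. Fitted on the 4 libraries alone, limma called no gene (smallest adjusted p = 0.32), with 1378 genes at an unadjusted p under 0.05. It called 10 DEGs on the unsorted libraries of both conditions and 11 with a weight for each library.

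APLNR, the receptor for apelin and for the peptide ELABELA in early mesoderm, showed the largest rise. Its level was 26.7 and 18.6 TPM without BMS493 and 281 and 155 TPM with it. Both treated libraries were far above both controls (log2 fold change 3.17 ± 0.34 SE, adjusted p = 1.1e-07 by limma). FOXF1, a forkhead factor of lateral plate and extraembryonic mesoderm, was at 14.02 and 7.59 TPM without BMS493 and at 43.5 and 75.8 TPM with it. It rose by 2.36 ± 0.32 on the log2 scale (adjusted p = 5.0e-06), further in replicate 2. SNAI2, a repressor of the epithelial state, went the same way, from 10.8 and 8.15 TPM to 34.4 and 66.5 TPM (log2 fold change 2.24 ± 0.31, adjusted p = 8.9e-06).

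FOXJ1, the master regulator of motile cilia, showed the largest fall among DEGs with a gene name. Its level was 59.6 and 68.3 TPM without BMS493 and 13.99 and 5.17 TPM with it. The groups did not overlap (log2 fold change -2.75 ± 0.45, adjusted p = 7.7e-05). NODAL, the TGF-beta family ligand that induces mesendoderm, was at 313 and 307 TPM in the controls and at 136 and 29.0 TPM with BMS493. It fell by 2.28 on the log2 scale (SE 0.40, adjusted p = 2.3e-04), but without BMS493 replicate 2 the log2 fold change was -1.18, with an adjusted p of 0.054. Among the given markers, the directions of APLNR, FOXF1 and FOXJ1 were called with any library left out, over ranges of 2.74 to 3.59, 1.96 to 2.77 and -3.39 to -2.11.

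**Figure D1:**
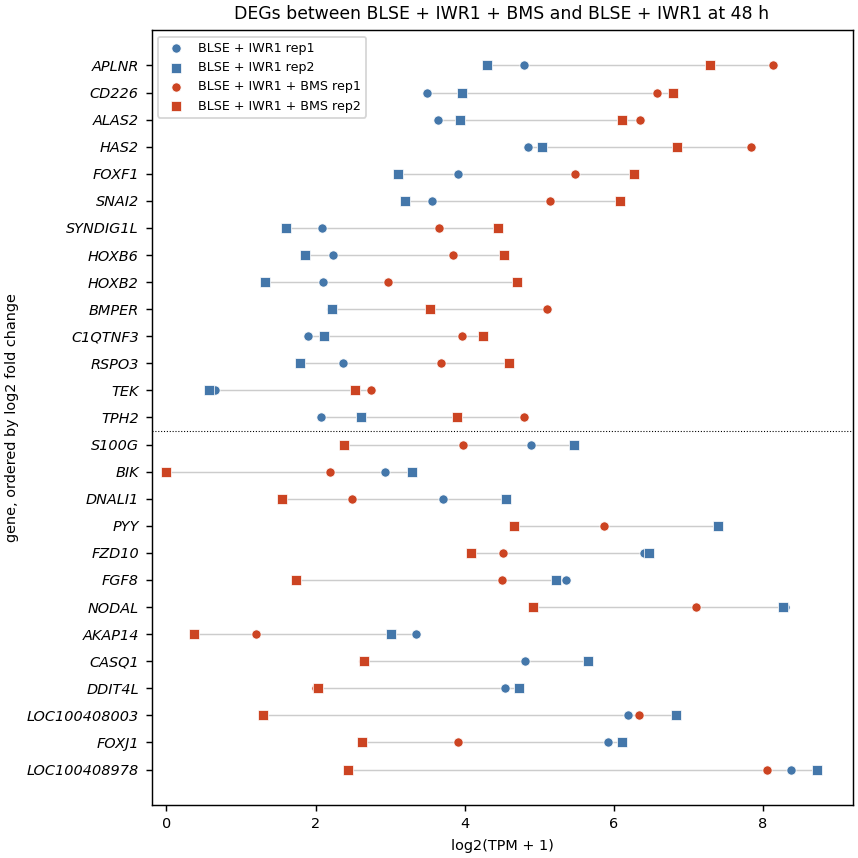
TPM on a log axis of the 27 DEGs in each of the 4 libraries, with a marker for every library and the genes ordered by log2 fold change. The libraries with BMS493 lie on the same side of the controls for every gene but LOC100408003, and markers of equal value cover each other, as for CASQ1 and DDIT4L.

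The other genes that rose past the 4-fold limit included matrix, vascular and HOX genes. HAS2, a synthase of hyaluronan, was at 27.9 and 31.7 TPM in the controls and at 227 and 114 TPM with BMS493. CD226, an adhesion receptor known from lymphocytes, went from 10.3 and 14.6 TPM to 94.7 and 110 TPM, and ALAS2, the erythroid enzyme of heme synthesis, from 11.4 and 14.3 TPM to 80.7 and 67.9 TPM. These were large and close between replicates for CD226 and ALAS2, with log2 fold changes of 2.96 ± 0.36 and 2.44 ± 0.38 (adjusted p = 9.4e-07 and 4.5e-05). TEK, the angiopoietin receptor of endothelium, was low in the controls at 0.57 and 0.49 TPM and reached 5.71 and 4.78 TPM (log2 fold change 2.03, adjusted p = 5.5e-06). RSPO3, a secreted enhancer of WNT signaling, was at 4.14 and 2.46 TPM and then 11.8 and 23.1 TPM. BMPER, which binds BMPs outside the cell, was at 3.63 and 3.65 TPM and then 33.4 and 10.5 TPM, and its call was lost without BMS493 replicate 1 (log2 fold change 1.31, adjusted p = 0.057). TPH2, SYNDIG1L and C1QTNF3 also rose, the last of these by 2.10 and SYNDIG1L by 2.21 on the log2 scale.

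Among the other falls, DDIT4L and CASQ1 were nearly equal in the treated libraries. DDIT4L, an inhibitor of mTOR signaling, was at 22.3 and 25.4 TPM without BMS493 and at 3 and 3.1 TPM with it. It had the smallest adjusted p of the DEGs (2.1e-09, log2 fold change -2.61 ± 0.23). CASQ1, a calcium-binding protein of skeletal muscle, was at 27.1 and 49.4 TPM and then 5.24 and 5.26 TPM (log2 fold change -2.59). FZD10, a WNT receptor, was at 84.0 and 88.0 TPM and then 21.8 and 15.9 TPM (log2 fold change -2.15 ± 0.34, adjusted p = 4.5e-05). Peptide YY, encoded by PYY, fell from 167 and 168 TPM to 57.5 and 24.2 TPM, and the axonemal genes DNALI1 and AKAP14 fell by 2.10 and 2.40 on the log2 scale.

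The remaining lower DEGs rested on BMS493 replicate 2. FGF8, an FGF ligand of the streak, was at 40.0 and 36.5 TPM in the controls and at 21.7 and 2.33 TPM with BMS493, and without replicate 2 its log2 fold change was -0.79 (adjusted p = 0.31). BIK, a proapoptotic BCL2 family gene, was at 6.61 and 8.81 TPM, then 3.56 TPM and 0 TPM, and its adjusted p became 0.30. S100G, a calcium-binding gene, was at 28.7 and 43.3 TPM, then 14.7 and 4.20 TPM, with an adjusted p of 0.083 without replicate 2. LOC100408978, paired with human LEFTY1 in the study's list of shared genes, was at 331 and 421 TPM in the controls. LEFTY1 encodes an inhibitor of NODAL. With BMS493 the locus was at 264 TPM in replicate 1 and at 4.43 TPM in replicate 2. The pooled log2 fold change of -3.30 fell in size to -0.50 (adjusted p = 0.57) without replicate 2. LOC100408003, an unnamed locus, was at 71.9 and 113 TPM, then 80.1 and 1.45 TPM, so that replicate 1 lay among the controls.

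**Figure D2:**
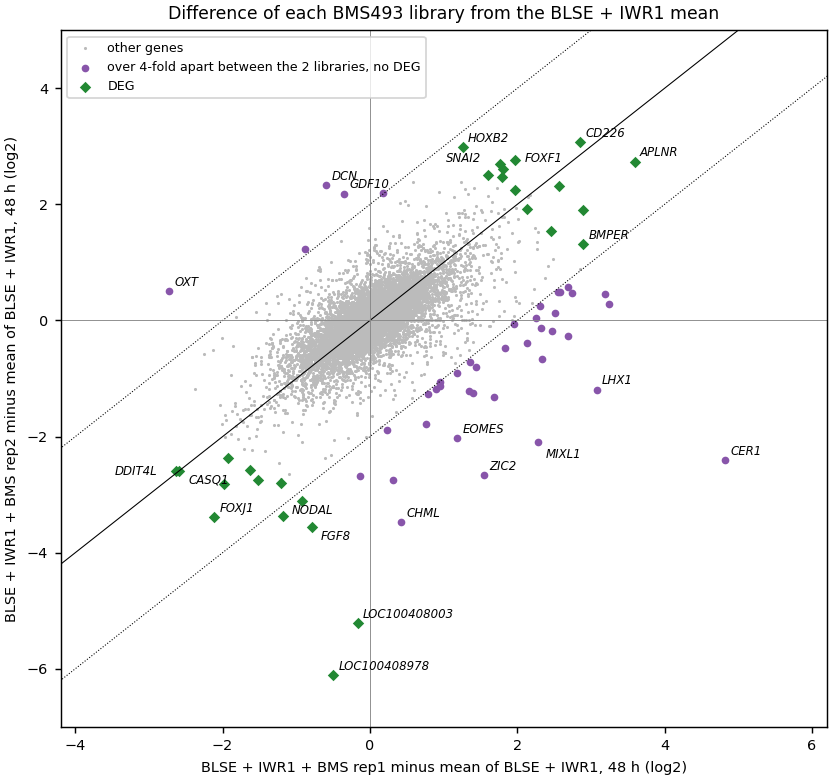
Log2 difference from the mean of the 2 BLSE + IWR1 libraries for each gene tested, with BMS493 replicate 1 on the x axis and replicate 2 on the y axis. The DEGs lie in the upper right and lower left, and CER1, MIXL1, LHX1, ZIC2 and EOMES lie in the lower right, higher in replicate 1 and lower in replicate 2.

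Lists of genes for pathways and cell types were counted at an adjusted p under 0.05. Beside them stand the 6.87% of all genes called higher, the 4.63% called lower and the all-gene median log2 fold change of 0.03. Members and lists were chosen with earlier results of these data known, and some lists hold the given markers APLNR, FOXF1, FOXJ1 or NODAL. The counts therefore describe the lists, and an excess over all genes was not tested. Of 15 lateral mesoderm genes kept, 7 rose and none fell, with a median log2 fold change of 0.94. BMP4, FOXF1, SNAI2 and APLNR were called with any library left out. SNAI2 was also counted in the epithelial-mesenchymal transition list below, and BMP4 in the BMP pathway list. BMP4, the ligand of ventral and lateral mesoderm that was also supplied in the medium as protein, was at 142 and 189 TPM without BMS493 and at 495 and 365 TPM with it (log2 fold change 1.37 ± 0.19, adjusted p = 6.1e-06). GATA6, PDGFRA and HAND2 were called in the full data but lost with a library left out, and the list median was 0.40 without BMS493 replicate 2, with 6 rises. The summed TPM of the list was 1505 and 1615 without BMS493 and 2898 and 2862 with it. HAND1 alone gave 1176 and 1186 TPM of these sums without BMS493 and 1517 and 1930 TPM with it. It did not pass (adjusted p = 0.29 by limma). In such unsorted bulk RNA, a change in the number of cells of a type and a change in the RNA of each cell cannot be told apart.

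Of 15 genes of the epithelial-mesenchymal transition (EMT), 8 rose and 1, EPCAM, fell, with a median log2 fold change of 0.96. VIM, which encodes the intermediate filament vimentin of mesenchymal cells, was at 299 and 315 TPM in the controls and at 1083 and 1059 TPM with BMS493. The spread within each pair was small beside this difference (log2 fold change 1.80 ± 0.19, adjusted p = 8.6e-08). The matrix protease gene MMP2 rose from 305 and 356 TPM to 584 and 746 TPM (0.998 ± 0.143 on the log2 scale). SNAI1 rose by 0.99, CDH2, which encodes N-cadherin, by 1.02, and SPARC by 0.74, each with any library left out. CDH1, which encodes E-cadherin, was at 198 and 263 TPM without BMS493 and 162 and 218 TPM with it, and did not pass (adjusted p = 0.36). EPCAM, another epithelial adhesion gene, fell by 0.42 (adjusted p = 0.017), but had an adjusted p of 0.17 without BMS493 replicate 1 and 0.074 without BLSE + IWR1 replicate 1.

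In the vascular and blood list, 3 of 14 genes rose and none fell, with a median of 0.48. Without BLSE + IWR1 replicate 1 the count was 2 and the median 0.24, and without replicate 2 they were 6 and 0.69. Besides TEK, CDH5, the cadherin of endothelial junctions, was at 2.29 and 4.51 TPM in the controls and 12.9 and 9.57 TPM with BMS493 (log2 fold change 1.51 ± 0.30, adjusted p = 9.0e-04). SOX7 passed in the full data (log2 fold change 0.99), with an adjusted p of 0.12 without BLSE + IWR1 replicate 1, 0.087 without BMS493 replicate 1 and 0.051 without BMS493 replicate 2. In an extraembryonic mesoderm list of 7 genes, which shares VIM and COL3A1 with the EMT list, 4 rose, with a median of 1.17. The median was 0.86 without BMS493 replicate 2 and 1.70 without BMS493 replicate 1. HGF and NID2 were the calls lost with a library left out. In the same list LUM, a collagen-binding proteoglycan, was at 3.89 and 2.09 TPM and then 8.79 and 16.6 TPM (log2 fold change 1.75). Among 20 amnion-like genes 2 rose, TBX2 (2.81 and 1.5 TPM, then 8.62 and 10.4 TPM) and KRT19, with a median of 0.04 that was close to that of all genes. The call for KRT19 was lost without BLSE + IWR1 replicate 2 (adjusted p = 0.14) or BMS493 replicate 2 (adjusted p = 0.15). The 12 endoderm genes included 2 that rose, SOX17 and GATA6. AFP and TTR, defining products of the liver and yolk sac, were at 0 in all 4 libraries.

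**Figure D3:**
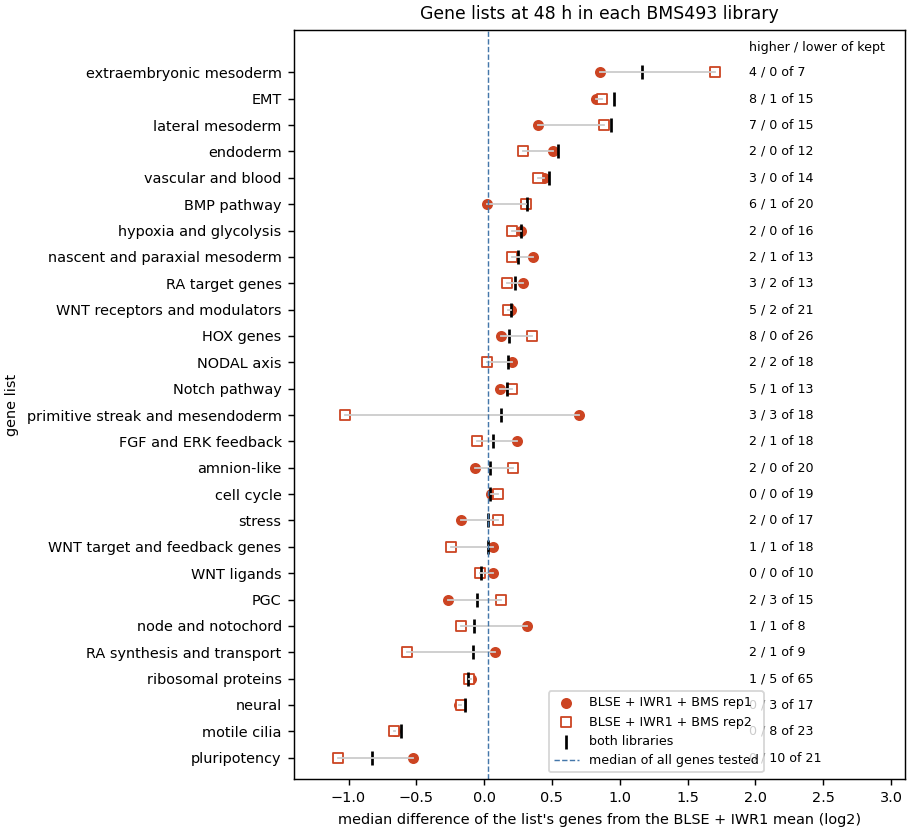
Log2 difference from the BLSE + IWR1 mean for the genes of each list with 7 or more members kept, shown as the median in each BMS493 library beside the median of all genes. The counts of genes higher and lower stand beside each list, and the streak list is the clearest case of the libraries falling on opposite sides, at 0.70 and -1.03.

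Within the BMP pathway 6 of 20 genes rose and 1 fell (median 0.31). With single libraries left out 1 to 5 rose, and BMP4 alone was called in each case. BMP2 rose from 2.10 and 2.78 TPM to 12.1 and 8.77 TPM (log2 fold change 1.72, adjusted p = 0.0025), and NOG, which encodes the BMP antagonist noggin, was at 77.7 and 71.4 TPM and then 295 and 98.8 TPM. ID1, a direct target of BMP signaling, was lower with BMS493, at 1190 and 926 TPM and then 686 and 729 TPM (log2 fold change -0.57, adjusted p = 0.035). The call for ID1 was lost without BLSE + IWR1 replicate 1 or either BMS493 replicate (log2 fold change -0.39, -0.53 and -0.61). Other members of the list went both ways. DLX3 was called higher (log2 fold change 1.24, adjusted p = 0.040 by limma), a call lost with any library left out. SMAD6 was higher (0.53) and ID4 (-0.40) and MSX2 (-0.27) were lower, and these did not pass.

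Among retinoic acid genes no single direction was seen. Of 9 genes of synthesis and transport, DHRS3, a retinaldehyde reductase that is itself induced by retinoic acid, fell from 48.2 and 57.5 TPM to 18.4 and 27.4 TPM (log2 fold change -1.19 ± 0.23, adjusted p = 6.0e-04). It was the member called with any library left out. ALDH1A3, which makes retinoic acid, rose from 12.2 and 13.8 TPM to 45.7 and 27.6 TPM (log2 fold change 1.39, adjusted p = 0.0028), and RDH10 rose by 0.95. Both calls were lost without BMS493 replicate 1 (adjusted p = 0.10 for ALDH1A3 and 0.47 for RDH10), and that of RDH10 also without BLSE + IWR1 replicate 1 (adjusted p = 0.14). ALDH1A2 was at 1.41 and 6.81 TPM and then 1.12 and 1.55 TPM, which did not pass (adjusted p = 0.17). CYP26A1, the degrading enzyme and a classical target, was at 131 and 115 TPM in the controls and at 150 and 57.0 TPM with BMS493. The groups overlapped (log2 fold change -0.40, adjusted p = 0.55). Earlier the treated libraries had both been below the controls, at 34.5 and 34.9 TPM against 76.3 and 45.6 TPM at 12 h and at 23.4 and 24.4 TPM against 60.6 and 52.3 TPM at 24 h (adjusted p = 0.56 and 0.31). Of 4 receptor and corepressor genes kept, RARG fell from 66.6 and 99.0 TPM to 51.7 and 45.8 TPM (log2 fold change -0.73, adjusted p = 0.015), a call lost without BLSE + IWR1 replicate 2 or BMS493 replicate 2.

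HOX genes, several of which are retinoic acid targets, moved upward where they moved. Of 26 kept, 8 rose and none fell, with a median of 0.18, and both treated libraries were above both controls for 11 of 26, against 24% of all genes. HOXB6, at 3.70 and 2.63 TPM without BMS493 and 13.3 and 22.0 TPM with it, and HOXB2, at 3.27 and 1.51 TPM and then 6.84 and 24.9 TPM, were DEGs (log2 fold changes 2.14 and 2.12). HOXB3 was at 0.58 and 0.37 TPM and then 6.06 and 2.46 TPM, and HOXB5 at 0.60 and 0.19 TPM and then 2.66 and 5.71 TPM. HOXA10 and HOXA11 rose by 1.24 and 1.37. All of these were low in the controls, and these 6 genes were called with any library left out. Another target, CDX1, a caudal factor of the posterior streak, fell from 93.5 and 90.4 TPM to 24.5 and 30.5 TPM (log2 fold change -1.71 ± 0.31, adjusted p = 3.6e-04).

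None of 10 WNT ligands passed. Of 21 WNT receptors and modulators 5 rose and 2 fell, and FZD10 and RSPO3, described above, were called with any library left out. SFRP1, a secreted WNT antagonist, was at 41.4 and 64.4 TPM and then 85.5 and 124 TPM (log2 fold change 0.98, adjusted p = 0.017), a call lost without BLSE + IWR1 replicate 1 or BMS493 replicate 2 (adjusted p = 0.21 and 0.20). Of 18 WNT target and feedback genes, 1 rose and 1 fell. The rise, of LGR5, was lost with a library left out, and the fall, of CDX1, was not. AXIN2, the usual feedback readout, was at 5.32 and 8.15 TPM without BMS493 and 4.67 and 3.35 TPM with it, below the controls in both but short of the threshold (adjusted p = 0.18).

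On the NODAL axis 2 of 18 genes rose and 2 fell. TDGF1, the NODAL co-receptor CRIPTO, fell from 344 and 434 TPM to 227 and 178 TPM (log2 fold change -0.94 ± 0.17, adjusted p = 3.4e-04). ACVR1B, the type I receptor ALK4, rose from 36.8 and 48.9 TPM to 110 and 86.3 TPM (1.18 ± 0.17, adjusted p = 1.5e-05). Both were called with any library left out, whereas NODAL itself and SMAD4 were not. FOXH1, the nuclear partner of the pathway, was at 74.2 and 90.8 TPM and then 93.2 and 73.8 TPM (adjusted p = 0.98).

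Pluripotency genes fell and none rose: 10 of 21 were lower, with a median log2 fold change of -0.82. POU5F1 was at 5033 and 5779 TPM without BMS493 and at 2899 and 3200 TPM with it (log2 fold change -0.82 ± 0.10, adjusted p = 5.0e-07). NANOG was at 242 and 286 TPM and then 103 and 94.7 TPM (-1.41 ± 0.17, adjusted p = 1.1e-06), and SOX2 at 41.4 and 68.4 TPM and then 15.0 and 15.8 TPM (-1.73 ± 0.28, adjusted p = 7.9e-05). For these 3 core factors the groups were apart in every library. TDGF1, UTF1 and DPPA5 were also called with any library left out, while DNMT3B, PRDM14 and DPPA2 were not. With single libraries left out 8 to 12 fell, and the median was -0.30 without BLSE + IWR1 replicate 2, where 1 gene rose.

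Germ cell genes did not move together. Of 15 kept, 2 rose and 3 fell, with a median of -0.05. The falls of PDPN and PRDM14 were lost with a library left out, and that of UTF1 was not. SOX17, the specifier of the primate germ line and an endoderm factor, was at 25.3 and 15.9 TPM without BMS493 and at 50.5 and 100.1 TPM with it (log2 fold change 1.77 ± 0.29, adjusted p = 7.2e-05), called with any library left out. PRDM1, which encodes BLIMP1, was at 8.74 and 13.3 TPM and then 17.2 and 24.0 TPM (0.85, adjusted p = 0.0064), with an adjusted p of 0.15 without BLSE + IWR1 replicate 1 and 0.13 without BMS493 replicate 2. TFAP2C was at 137 and 150 TPM in the controls and split around them with BMS493, at 96.5 and 216 TPM. NANOS3 split in the same way, at 15.8 and 10.2 TPM and then 9.85 and 24.0 TPM, and neither passed (adjusted p = 0.99 and 0.62).

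The neural list addressed the reason for adding BMS493. Of its 35 genes 27 were in the table and 17 were kept, and 3 of these fell and none rose, with a median of -0.14. SOX2, also in the pluripotency list, was called with any library left out, and ELAVL3, a neuronal RNA-binding protein, was at 2.18 and 2.21 TPM and then 0.69 and 0.23 TPM (log2 fold change -1.15, adjusted p = 0.012). The call for ELAVL3 was lost without BMS493 replicate 2 (adjusted p = 0.14) or BLSE + IWR1 replicate 1 (adjusted p = 0.0505). SOX1, a defining marker of neural progenitors, did not reach the level needed to be tested, and PAX6 was not analysed here. The summed TPM of the kept genes was 521 and 657 without BMS493 and 501 and 452 with it.

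Genes of motile cilia fell in part and none rose. Of 23 kept, 8 fell, with a median of -0.62, and both treated libraries were below both controls for 15 of 23, against 21% of all genes. TPPP3, a tubulin-binding gene of ciliated cells, was at 22.2 and 27.0 TPM and then 5.90 and 5.58 TPM (log2 fold change -1.92 ± 0.39, adjusted p = 0.0011). SPAG6, a central-pair gene, was at 25.7 and 31.5 TPM and then 16.0 and 12.7 TPM, and CFAP44 at 6.15 and 8.36 TPM and then 2.36 and 1.75 TPM. FOXJ1, SPAG6, TPPP3, CFAP44 and AKAP14 were called with any library left out, and TEKT1, TEKT2 and CCDC39 were not. The summed TPM of the list was 165 and 215 without BMS493 and 63.0 and 51.8 with it.

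In the Notch list 5 of 13 genes rose and 1 fell, with a median of 0.17. JAG1, a ligand, was at 3.26 and 8.09 TPM and then 15.4 and 13.8 TPM (log2 fold change 1.33), while HEY2, a target, was at 5.04 and 7.20 TPM and then 15.2 and 24.3 TPM (1.52). JAG1 and HEY2 were called with any library left out, whereas DLL3, NOTCH2, HEY1 and NRARP were not, and the rises numbered 2 without BMS493 replicate 1 and 4 without any other library.

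Other lists held few calls. In the FGF list 2 of 18 rose, among them the ERK inhibitor SPRED1 (9.48 and 11.7 TPM, then 24.4 and 24.0 TPM), and FGF8 fell. EGLN3, an oxygen-sensing hydroxylase, rose from 78.9 and 84.7 TPM to 175 and 194 TPM (1.17 ± 0.13, adjusted p = 3.1e-07) in a hypoxia list where 2 of 16 passed. None of 19 cell cycle genes and none of 4 trophoblast genes passed. In the stress list 2 of 17 rose, in the node list 1 rose and 1 fell among 8 genes, and in the paraxial mesoderm list 2 rose and 1 fell among 13. With a library left out, calls were lost for ASNS and GADD45A (stress), NOG (node), and DLL3 and MESP2 (paraxial mesoderm). Those for SPRED2 in the FGF list and PDK1 in the hypoxia list were lost too.

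The BMS493 libraries differed from each other by over 4-fold for 46 genes (0.411%), against 30 (0.268%) between the controls. Of these 46 genes, 41 (0.366%) were lower in replicate 2. In 21 of the 41, replicate 1 lay above both controls and replicate 2 below both, so that their mean describes neither library. The genes were picked by the gap between these libraries, which favours such positions. Each difference from the controls rests on 1 library. CER1, a secreted inhibitor of NODAL, BMP and WNT made by anterior endoderm, was the extreme: the controls were at 26.9 and 52.5 TPM, replicate 1 at 1089 TPM and replicate 2 at 6.25 TPM. MIXL1, a homeobox factor of the streak, was at 68.3 and 78.8 TPM in the controls, 361 TPM in replicate 1 and 16.4 TPM in replicate 2. EOMES, a T-box factor of mesendoderm, was at 25.6 and 34.3 TPM, then 68.3 and 6.52 TPM. LHX1, a factor of anterior mesendoderm, was at 3.07 and 9.40 TPM, then 53.9 and 1.84 TPM, and ZIC2 at 32.6 and 56.0 TPM, then 127 and 5.88 TPM. None of these passed the test between the conditions.

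Of the 18 primitive streak genes, 8 were over 4-fold lower in replicate 2 than in replicate 1, and the median difference from the control mean was 0.70 in replicate 1 and -1.03 in replicate 2. The summed TPM of the list was 955 and 1123 in the controls, 2782 in replicate 1 and 549 in replicate 2. TBXT, or Brachyury, was at 149 and 220 TPM, then 269 and 71.2 TPM. MESP2, a factor of nascent mesoderm, was at 39.0 and 44.2 TPM and reached 202 TPM in replicate 1 alone, with 42.9 TPM in replicate 2. GATA6 rose in both but unequally, from 57.3 and 74.5 TPM to 354 and 126 TPM. The test over both replicates gave 3 rises and 3 falls for this list, and with single libraries left out the counts ran from 1 to 6 and from 1 to 7.

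The 5 genes over 4-fold higher in replicate 2 were DCN, GDF10, SPARCL1, NTS and OXT. DCN, which encodes the stromal matrix protein decorin, was at 41.6 and 34.0 TPM in the controls, 24.6 TPM in replicate 1 and 193 TPM in replicate 2. GDF10, a TGF-beta family ligand, was at 12.4 and 15.2 TPM, then 10.5 and 65.9 TPM. OXT, which encodes oxytocin, was at 14.2 and 14.6 TPM, then 1.32 and 20.8 TPM. In 4 of the 5 replicate 1 was below both controls and replicate 2 above both. CHML, a gene of Rab prenylation, was at 9.42 and 11.6 TPM, then 14.3 and 0.03 TPM. It was split between replicates elsewhere too, at 9.92 and 0.07 TPM with BMS493 at 24 h and at 1.32 and 17.5 TPM in pre-treated cjESCs.

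**Figure D4:**
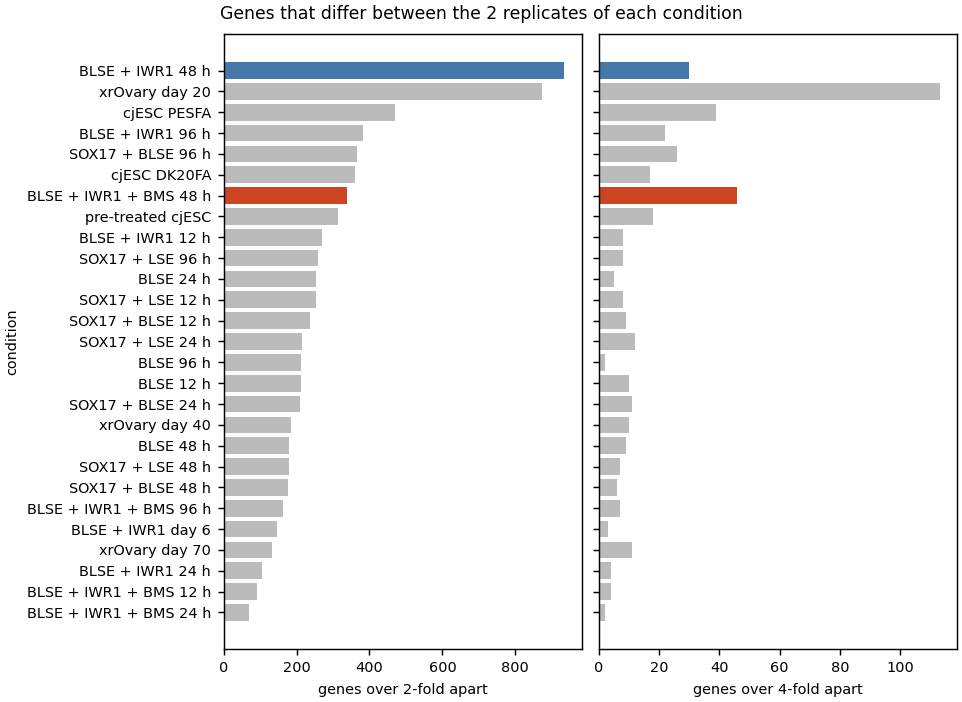
Number of genes that differ between the replicates of each of the 27 conditions, by over 2-fold and by over 4-fold. BLSE + IWR1 at 48 h has the highest count over 2-fold (935), and BLSE + IWR1 + BMS at 48 h has 339 over 2-fold and 46 over 4-fold.

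Of the 27 DEGs 5, FGF8, BIK, NODAL and the loci LOC100408978 and LOC100408003, were over 4-fold apart between the treated libraries. All 27 had the same direction in both treated libraries against the control mean. The DEGs were picked by the mean of these same libraries, so this agreement was largely built in. In replicate 1 the log2 difference was only -0.17 for LOC100408003 and -0.50 for LOC100408978. Past 4-fold were 10 DEGs in replicate 1, 23 in replicate 2 and 6 in both. Replicate 2 was further from the controls for 11 of the 13 lower DEGs and for 8 of the 14 higher ones. The median of the pluripotency list was -0.52 in replicate 1 and -1.08 in replicate 2, while the EMT list (0.82 and 0.87) and the motile cilia list (-0.66 and -0.66) were alike in both.

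At 24 h the same contrast gave few calls, 49 genes at an adjusted p under 0.05 (0.438%) and 1 DEG (0.00893%). That gene, CCDC80, a matrix protein named after its values were seen, was at 4.21 and 6.70 TPM and then 28.9 and 28.3 TPM. VIM was already higher, at 145 and 171 TPM without BMS493 and 394 and 399 TPM with it (log2 fold change 1.32, adjusted p = 1.8e-04), and SOX2 lower, at 160 and 187 TPM and then 65.0 and 66.6 TPM (-1.38, adjusted p = 0.014). The streak genes did not split at this time. Both treated libraries were above both controls for 14 of 18, against 26.6% of all genes, with a median of 0.69 beside 0.04, although SP5 (log2 fold change 2.15, adjusted p = 0.028) and EVX1 (1.71, adjusted p = 0.0078) were the members that passed. MIXL1 was at 33.0 and 31.6 TPM without BMS493 and 149 and 84.4 TPM with it, EOMES at 14.6 and 14.4 TPM and then 49.0 and 43.4 TPM, and TBXT at 152 and 123 TPM and then 391 and 251 TPM, none of them past the threshold.

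The difference between the effects at 48 h and 24 h was tested as an interaction, which called 25 genes at an adjusted p under 0.05 (0.223%) and 1, the complement gene C7, past the 4-fold limit (0.00893%). APLNR was at 3.15 and 3.36 TPM without BMS493 and 6.98 and 5.95 TPM with it at 24 h, so its effect grew by 2.36 on the log2 scale (adjusted p = 0.030). BMP4 was at 94.9 and 105 TPM against 104 and 108 TPM at 24 h, and its effect grew by 1.29 (adjusted p = 0.030). These calls were lost without BMS493 replicate 1 at 48 h (adjusted p = 0.12 for APLNR and 0.13 for BMP4), that of APLNR also without BLSE + IWR1 replicate 2 (0.059) and that of BMP4 also without BLSE + IWR1 replicate 1 (0.083). NODAL was at 195 and 179 TPM against 245 and 239 TPM at 24 h, above the controls, and its effect changed by -2.65 (adjusted p = 0.038), a call lost without BMS493 replicate 2 at 48 h (-1.55, adjusted p = 0.23). FZD10 and CASQ1 likewise lay near or among the controls at 24 h, at 70.0 and 80.0 TPM against 78.4 and 72.0 TPM and at 19.0 and 30.7 TPM against 30.3 and 30.1 TPM. FOXF1 and FOXJ1 did not pass this test (adjusted p = 0.38 and 0.41). FOXF1 was at 2.22 and 3.08 TPM against 7.30 and 6.29 TPM at 24 h, and FOXJ1 at 122 and 154 TPM against 73.8 and 57.0 TPM, so that both already lay on the side they took at 48 h.

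**Figure D5:**
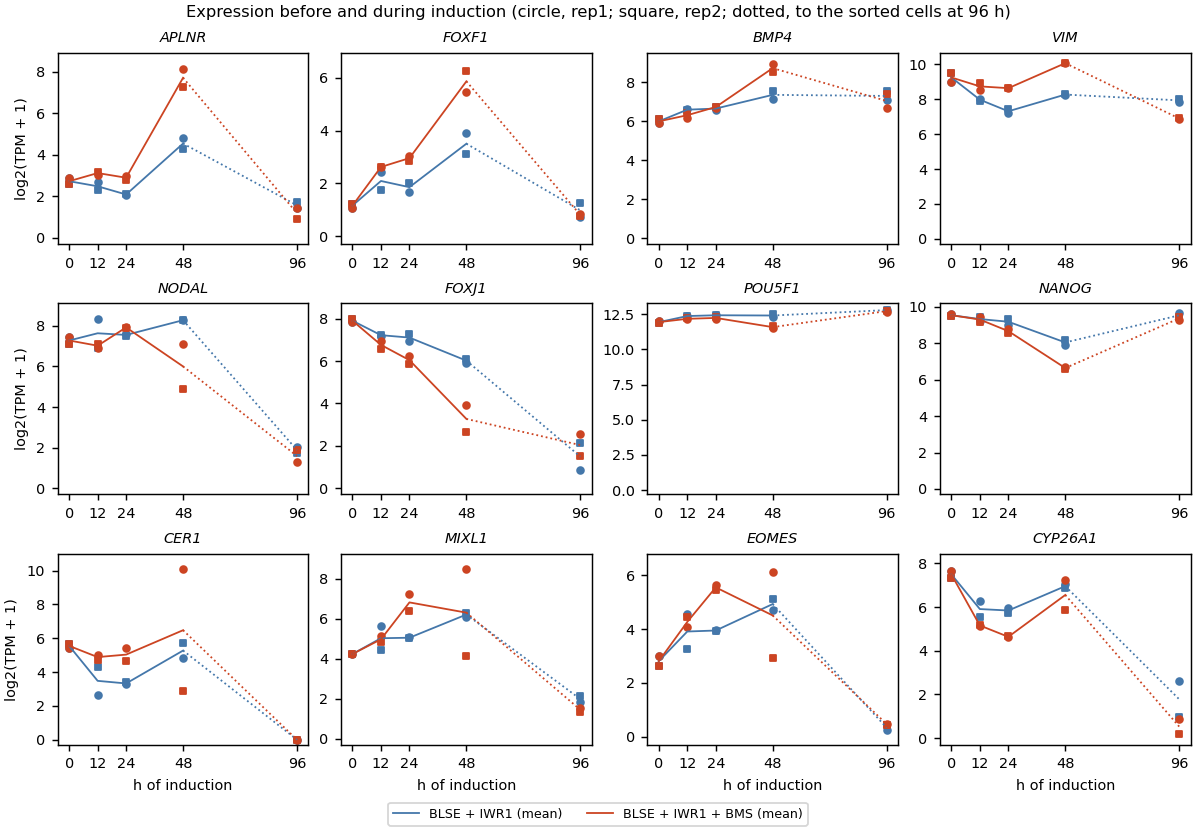
TPM on a log axis of 12 genes from pre-treated cjESCs (0 h) through 12, 24 and 48 h to 96 h in BLSE + IWR1 with and without BMS493, with a marker for each library and dotted lines to the 96 h libraries, which were sorted. APLNR, FOXF1 and BMP4 are furthest apart between the conditions at 48 h, VIM lies higher with BMS493 at 12, 24 and 48 h, and CER1, MIXL1 and EOMES fall apart between the BMS493 replicates at 48 h.

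From 24 to 48 h 23 genes (0.205%) became DEGs without BMS493 and 68 (0.607%) with it. APLNR rose over that day in both conditions, by 2.45 on the log2 scale without BMS493 and by 4.81 with it (adjusted p = 1.5e-05 and 3.3e-12). POU5F1 changed by -0.02 without BMS493 (adjusted p = 0.96) and by -0.65 with it (adjusted p = 1.1e-05). DDIT4L fell in both, by 1.53 without BMS493 and by 3.01 with it on the log2 scale.

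The cells of 96 h were sorted for tdTomato, so their values stand beside those at 48 h without a comparison. In those libraries APLNR was at 1.70 and 2.26 TPM without BMS493 and 1.74 and 0.89 TPM with it, FOXF1 at 0.64 and 1.38 TPM and at 0.78 and 0.72 TPM, and NODAL at 3.04 and 2.38 TPM and at 1.42 and 2.75 TPM. VIM was at 229 and 259 TPM without BMS493 and 115 and 121 TPM with it. NANOS3 was at 146 and 225 TPM and at 434 and 348 TPM. APLNR and FOXF1 were thus near the lower end of the scale in the sorted cells of either condition.

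Cells given BLSE alone for 48 h came from cjESCs kept in DK20FA medium, without the pre-treatment and with inducible transgenes, and differ from the treated cells in several ways at once. There APLNR was at 262 and 256 TPM, FOXF1 at 110 and 118 TPM, BMP4 at 478 and 548 TPM and VIM at 1492 and 1633 TPM. NODAL was at 26.8 and 29.3 TPM, FOXJ1 at 2.65 and 1.55 TPM, FZD10 at 16.2 and 13.6 TPM and NANOG at 31.5 and 22.6 TPM. HOXA10 was at 85.0 and 102 TPM in BLSE alone and at 7.50 and 5.97 TPM with BMS493.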

How the data were processed

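RNA was read as single-end, strand-specific poly(A) libraries. The authors aligned the reads with STAR to the marmoset assembly cj1700_1.1, removed low-quality alignments with samtools, quantified genes with RSEM and deposited TPM values for 14812 genes shared with human, in 54 libraries of 27 conditions, 2 replicates each. Counts were not used here, so depth is unknown and no interval for counting error is given. From the deposited TPM, 11197 genes with log2(TPM + 1) of at least 1.5 in 1 or more libraries were kept. A pseudocount of 1 understates fold changes of low genes. limma 3.58.1 in R 4.3.3 was fitted with a mean per condition, an intensity trend and no replicate block (27 degrees of freedom), and two-sided p-values were adjusted over all 11197 genes by the Benjamini-Hochberg method. Differences are BLSE + IWR1 + BMS minus BLSE + IWR1, and errors are standard errors of the fit. The fit called 200 of 200 genes simulated at 8-fold and 0 of 10997 unchanged ones for the 48 h comparison. The changed genes were drawn only from those above a set level in BLSE + IWR1 at 48 h, so this recovery does not cover low genes. The simulation gave each gene the same spread in every condition. It therefore cannot show how many false calls arise in these data, where BLSE + IWR1 at 48 h had the widest replicate spread. An exact permutation test of 2 against 2 cannot go below 0.33. Genes named were the given markers, members of gene lists, the 10 largest rises and falls among DEGs with a gene name, the 5 genes per direction that differed most between the BMS493 replicates, and genes named in the study's account of BMS493; SYNDIG1L and the other DEGs outside these were named after their values were seen. Members and lists were chosen with earlier results of these data known. Deviations of same-numbered libraries showed little correlation (-0.05 at 48 h and -0.09 at 24 h). With 2 pairs at each time this cannot tell whether the replicate numbers mark pairs. Alternatives were other pseudocounts, filters, scalings, sample sets, library weights, a replicate block and leaving out each library.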

Additional observations from a re-analysis of the deposited data

Results flagged for a closer look

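Among the genes named here, the effect of BMS493 at 48 h differed for 11 from that at 24 h by the interaction test at an adjusted p under 0.05 in limma. The difference between the effects, on the log2 scale, was positive for APLNR (2.36), C7 (2.18), TEK (1.89), KLF4 (1.31), BMP4 (1.29) and EGLN3 (0.85). It was negative for POU5F1 (-0.63), DDIT4L (-1.48), FZD10 (-2.14), CASQ1 (-2.28) and NODAL (-2.65). C7, a complement gene named after its values were seen, was the only one that also passed the 4-fold rule (adjusted p = 0.0027). It was at 3.80 and 5.93 TPM without BMS493 and 3.64 and 4.25 TPM with it at 24 h, and at 4.15 and 5.44 TPM and then 21.7 and 20.9 TPM at 48 h. KLF4, a pluripotency factor, stood apart in kind: it was lower with BMS493 at 24 h (41.9 and 56.7 TPM, then 16.3 and 19.8 TPM) and alike at 48 h (9.41 and 14.5 TPM, then 9.40 and 12.9 TPM).

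With single libraries of 48 h left out, C7 and CASQ1 were called in 4 of 4 fits and TEK in 3. APLNR, KLF4, BMP4, EGLN3, POU5F1 and NODAL were called in 2, and DDIT4L and FZD10 in 1. The highest adjusted p among those fits was 0.23, for NODAL without BMS493 replicate 2. The sign was the same for all 11 in each of the 14 alternatives run. It was free to change only with another pseudocount, scaling or normalization, or with a library left out. The other alternatives kept the same group means and so the same estimate. None of the 11 passed an adjusted p of 0.05 in limma with a pseudocount of 0.1 (lowest 0.059). The same held on the libraries compared alone (lowest 0.25) and on the unsorted libraries of both conditions (lowest 0.11). With a weight per library C7 alone passed (adjusted p = 0.016), and the others lay from 0.14 to 0.20.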

How the results depend on the processing

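All 27 DEGs kept their direction in each of the 14 alternatives. Of the 438 named genes, none called at an adjusted p under 0.05 in the main fit reversed in any. Genes not called were not checked for a reversal, and 368 of the 438 could be tested with the filter set on the 4 libraries alone. A direction was free to change only with another pseudocount, scaling or normalization, or with a library left out. The other alternatives kept the same group means. Counts moved more. On the libraries compared alone, limma gave 0 for the DEGs at 48 h, for genes at an adjusted p under 0.05, for the interaction and for the changes from 24 to 48 h in both conditions, with 23 genes past the fold, level and unadjusted p. On the unsorted libraries of both conditions the counts were 10, 603, 0, 7 and 39. With a weight per library they were 11, 175, 0 and, for the 24 to 48 h change without BMS493, 10. A pseudocount of 0.1 gave 34 DEGs, 16 of them shared with the 27, an interaction count of 0 and 270 genes over 4-fold apart between the BMS493 replicates. Median-ratio scaling and quantile normalization each gave 2 interaction calls. The replicate block gave 27 DEGs, the same 27 genes, so it changed no such call, and whether the shared numbers mark pairs is not known. With each library left out in turn, the lone sample being assumed to vary like the other groups, DEGs ran from 41 to 49 (20 and 15 of the 27 shared without BLSE + IWR1 replicates 1 and 2, 23 and 9 without BMS493 replicates 1 and 2), genes at an adjusted p under 0.05 from 582 to 1887, interaction calls from 1 to 13, and 24 to 48 h changes from 21 to 24 and from 67 to 86. The all-gene median was -0.09 without BLSE + IWR1 replicate 1 and 0.15 without replicate 2. Of 65 ribosomal protein genes 1 rose and 5 fell, with 5 and 2 without the former library and 0 and 19 without the latter. With a weight per library, 4 lateral mesoderm, 4 EMT and 4 HOX genes rose, and 6 pluripotency and 2 motile cilia genes fell. Causes were not tested.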
